A study of Mus musculus with 6 samples.

Results

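The Slc16 family encodes membrane carriers of small organic acids and related metabolites, and its transcripts were examined in livers that lack a working tyrosine pathway. The set described here holds 9 family genes, Slc16a1, Slc16a3, Slc16a5, Slc16a6, Slc16a7, Slc16a10, Slc16a11, Slc16a12 and Slc16a13. They were read on 10 probe sets of the 34472 on the array, since Slc16a5 has 2. The genes were selected on measured signals of the very comparison described below, continuous NTBC against withdrawal. Their differences are therefore given as a description, and no p-value is attached to any of the 9 genes.

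All mice were male FAH5981SB animals on a C57Bl/6J background, with a point mutation in Fah that destabilises fumarylacetoacetate hydrolase, the last enzyme of tyrosine breakdown. NTBC (nitisinone) blocks the pathway upstream of the missing enzyme. All 6 samples came from mice raised on drinking water with 8 mg/l NTBC and 3% dextrose and on a chow poor in tyrosine and phenylalanine, and livers were taken at 12 weeks of age. In the continuous group (3 arrays) NTBC was never stopped. The withdrawal group (3 arrays) went without NTBC for 7 days from 11 weeks on, and whether the dextrose went on is not stated. No group with intact Fah and no other time was analysed here. The replicates are labelled biological without naming animals, so a p-value here refers only to the spread among these samples, which may be technical.

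Carriers of the monocarboxylate branch of the family, such as Slc16a1, Slc16a3 and Slc16a7, move lactate, pyruvate and ketone bodies together with a proton, in whichever direction the gradients allow. They reach the cell surface with the help of immunoglobulin-like partner proteins, basigin or embigin. Other family members carry different cargo. Slc16a10 passes the aromatic amino acids tyrosine, phenylalanine and tryptophan as well as thyroid hormones, Slc16a12 passes creatine, and Slc16a5 has been studied mainly as a carrier of drugs. The liver takes up lactate for glucose synthesis and exports ketone bodies, so both directions of transport matter in this tissue.

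Values below are log2 signals, and a difference is withdrawal minus continuous with the standard error (SE) of the fit over all probe sets. All 60 values of the 10 probe sets lay above the lower quartile of their array. The arrays had median log2 signals between 5.21 and 5.44, and across probe sets they correlated at 0.978 to 0.991 within groups and 0.955 to 0.969 between groups. Over all probe sets the median difference was -0.08, with 2139 called higher and 1102 called lower at limma's adjusted p of 0.05. With median centring of the arrays these became 0.02, 2393 and 708. Whole liver was measured, so fewer cells of a type and less RNA per cell cannot be told apart. Of 7 hepatocyte markers 3 were lower after withdrawal, Cps1 (-1.08), Ass1 (-0.85) and Tat (-1.23), and the mean log2 signal of the list was 11.79 to 11.88 in the continuous and 11.18 to 11.42 in the withdrawal group. Among the markers not called, Alb, the most abundant plasma protein, stood at 14.17 ± 0.06 (SD, n = 3) and 14.12 ± 0.01. The other markers not called were Hnf4a, with a positive difference (0.13), and Apoa1 (-0.23) and Serpina1c (-0.18).

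Of the 10 probe sets, 5 were called higher and 1 lower at that threshold, and 4 were not called. Over the whole array the shares were 6.21% higher, 3.20% lower and 9.40% in all. The groups did not overlap on 7 of the 10, against 27.6% of all probe sets, and 3 of the 10 differed by at least 2-fold, against 3.56% of all. Since the genes were chosen on this comparison, nothing is read from these shares. The median difference of the 10 was 0.65.

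**Figure D1:**
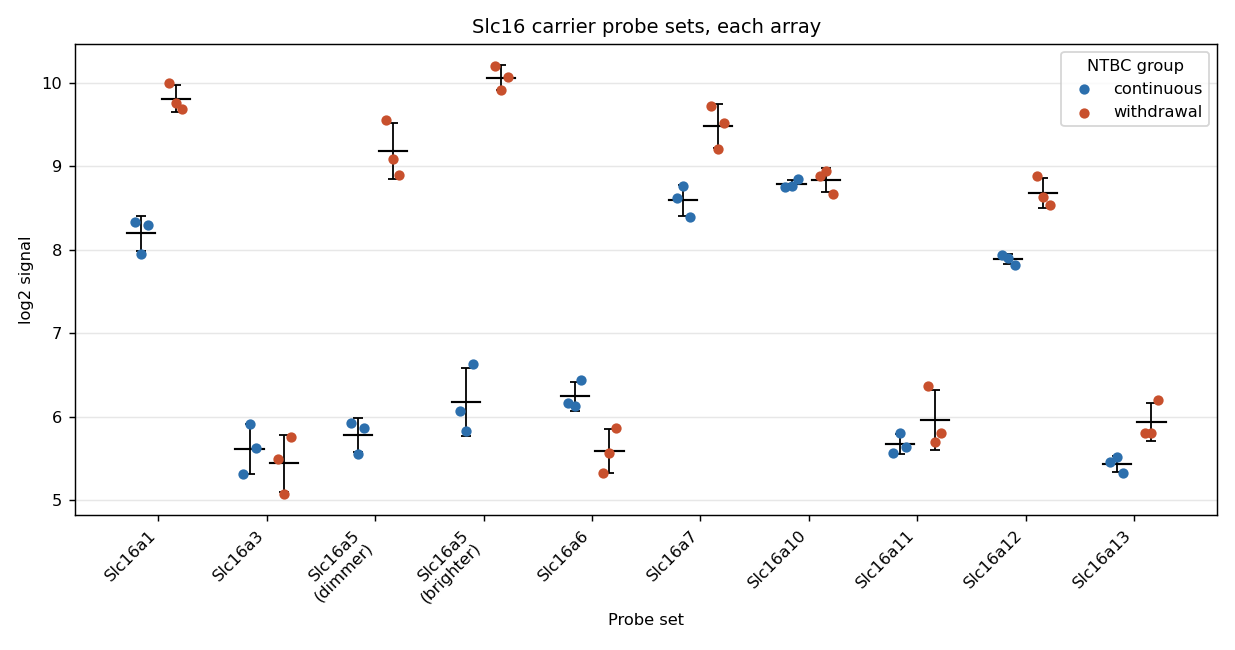
Log2 signal of each Slc16 probe set on every array, continuous NTBC in blue and withdrawal in orange, with the mean (bar) and SD (whiskers) of 3 arrays per group. The groups are widest apart on the 2 Slc16a5 probe sets, and they overlap for Slc16a3, Slc16a10 and Slc16a11.

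Promoter sequence was at hand for 5 of the 9 genes in RefSeq windows of GRCm38.p6, with none for Slc16a5, Slc16a6, Slc16a7 and Slc16a13. It is shown for the pair of these 5 that were higher after withdrawal (Slc16a1 and Slc16a12) and for a pair whose groups overlapped (Slc16a3 and Slc16a10). Each line gives the 250 bases before the annotated start, 5′ to 3′ on the gene's strand. Slc16a1 is at chr3:104638414-104638663 on the plus strand, Slc16a12 at chr19:34747329-34747578 on the minus strand, Slc16a3 at chr11:120948817-120949066 on the plus strand and Slc16a10 at chr10:40142255-40142504 on the minus strand. Capitals mark matches on either strand to the antioxidant response core TGACNNNGC, the E-box CACGTG, the hypoxia response core ACGTG or the GC box GGGCGG. The E-box holds the hypoxia core within it on both strands.
Slc16a1: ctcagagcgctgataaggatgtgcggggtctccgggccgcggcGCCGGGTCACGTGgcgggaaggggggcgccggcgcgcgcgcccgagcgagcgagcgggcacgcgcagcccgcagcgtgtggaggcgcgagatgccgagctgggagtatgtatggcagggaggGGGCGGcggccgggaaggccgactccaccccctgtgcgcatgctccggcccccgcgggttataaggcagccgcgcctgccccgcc
Slc16a12: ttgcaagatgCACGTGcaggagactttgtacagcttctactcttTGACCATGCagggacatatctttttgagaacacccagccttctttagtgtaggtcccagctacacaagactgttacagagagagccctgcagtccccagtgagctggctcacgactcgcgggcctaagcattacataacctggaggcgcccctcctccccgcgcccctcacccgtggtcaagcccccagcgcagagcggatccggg
Slc16a3: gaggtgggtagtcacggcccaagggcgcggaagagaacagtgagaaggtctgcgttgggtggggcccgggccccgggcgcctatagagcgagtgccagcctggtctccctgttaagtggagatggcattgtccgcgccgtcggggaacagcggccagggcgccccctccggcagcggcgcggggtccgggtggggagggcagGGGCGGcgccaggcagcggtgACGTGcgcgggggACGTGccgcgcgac
Slc16a10: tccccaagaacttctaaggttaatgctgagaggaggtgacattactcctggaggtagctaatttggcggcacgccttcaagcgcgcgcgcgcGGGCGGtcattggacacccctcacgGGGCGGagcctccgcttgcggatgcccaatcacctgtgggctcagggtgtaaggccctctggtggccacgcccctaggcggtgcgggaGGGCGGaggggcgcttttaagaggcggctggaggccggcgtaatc

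The windows of Slc16a1 and Slc16a12 each held the antioxidant response core and the E-box. In Slc16a1 the antioxidant core began 207 bases before the start on the opposite strand and ran into the E-box, which began at 200. In Slc16a12 the core began 206 bases and the E-box 240 bases before the start. Among all 32851 RefSeq windows from 250 bases before to 50 after a start, 12.4% held the antioxidant core and 7.15% the E-box. Slc16a3 held neither, and had the hypoxia core at 27 and at 14 bases before the start. That core was in 19.6% of all windows. Slc16a10 had none of the 3 and held 3 GC boxes. Slc16a1 and Slc16a3 each held 1 GC box, a motif in 35.7% of windows. The window of Slc16a11 held no match to any of the motifs, and none of the 5 held a TATAAA box (13.6% of windows) or the PPAR direct repeat (0.0396%). The 250 bases printed were 76.4% G or C for Slc16a1, 57.6% for Slc16a12, 73.6% for Slc16a3 and 64.4% for Slc16a10. The median over all windows was 52.4%, so the shares of all windows are not matched for base composition. These are letter matches only, and no binding was measured.

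Slc16a5 differed most. This gene encodes a carrier best known for moving drugs such as the diuretic bumetanide rather than lactate. Its brighter probe set read 6.07, 5.83 and 6.63 with NTBC and 10.20, 9.91 and 10.07 after its withdrawal, in the order of the replicate numbers, as are all triplets below. On the linear scale these were intensities of 67.2, 56.9 and 99.0 against 1176, 962 and 1075. All withdrawal arrays lay far above all continuous arrays, and the difference was 3.88 (SE 0.21), or 14.8-fold.

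The dimmer probe set of Slc16a5 gave the same picture, with 5.93, 5.55 and 5.86 on the continuous arrays and 9.55, 9.09 and 8.89 on the withdrawal arrays. Its difference was 3.40 (SE 0.20), or 10.5-fold. On each array the brighter probe set exceeded the dimmer one, by 0.14 to 0.77 in the continuous group and by 0.65 to 1.18 in the withdrawal group. Which exons or strand each probe set covers is not given in the sources used here. Across the alternatives that refit the data the difference lay between 3.71 and 4.11 on the brighter and between 3.21 and 3.59 on the dimmer probe set. Since the gene was chosen on this comparison, these ranges are a description and show no stability.

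Slc16a1, the widely expressed carrier of lactate, pyruvate and ketone bodies, was 3.06-fold higher after withdrawal. Its signals were 8.33, 7.95 and 8.30 with NTBC and 9.99, 9.75 and 9.68 without it. The lowest withdrawal array was more than 1 log2 unit above the highest continuous array, and the difference was 1.61 (SE 0.17).

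Slc16a7 encodes a carrier with high affinity for pyruvate and lactate, which suits uptake at low concentrations. It read 8.62, 8.76 and 8.39 on continuous arrays and 9.72, 9.20 and 9.51 on withdrawal arrays. The groups were apart, and the difference of 0.89 (SE 0.18) was a 1.85-fold one.

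The remaining carriers reported to take lactate or pyruvate showed smaller differences. Slc16a13, a lactate carrier of hepatocytes, read 5.46, 5.52 and 5.33 against 5.81, 5.80 and 6.20. The groups did not overlap, but the difference of 0.50 (SE 0.16) was not called. It was called after quantile normalization (0.58) and after median centring (0.60).

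Slc16a11, whose human counterpart is linked to diabetes risk, read 5.57, 5.80 and 5.64 against 6.37, 5.70 and 5.81. Withdrawal replicate 1 alone stood above all continuous arrays by a clear margin, and the withdrawal group overlapped the continuous one. The difference was 0.29 (SE 0.19), and 0.08 without withdrawal replicate 1. Slc16a11 and Slc16a13 are adjacent protein-coding genes on chromosome 11, which carries 5 of the 9 genes.

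Slc16a3, the lactate exporter of highly glycolytic cells, read 5.31, 5.91 and 5.63 with NTBC and 5.49, 5.08 and 5.76 without. The groups overlapped, with a difference of -0.17 (SE 0.21, 95% interval -0.65 to 0.30), and of 0.01 without withdrawal replicate 2. The interval leaves room for a modest change in either direction.

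Slc16a6 was the gene of the set that was lower. It encodes a carrier that exports ketone bodies from hepatocytes in fish and moves taurine. Its signals were 6.16, 6.13 and 6.44 in the continuous group and 5.33, 5.57 and 5.86 in the withdrawal group. All withdrawal arrays lay below all continuous arrays, with a difference of -0.66 (SE 0.18), or 1.58-fold. The gene fell out of the called set when 1 of 4 arrays was left out, continuous replicates 2 (-0.71) and 3 (-0.56) and withdrawal replicates 1 (-0.53) and 2 (-0.65), and after median centring (-0.56).

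Slc16a12, the creatine carrier, was 1.73-fold higher. It read 7.94, 7.90 and 7.82 on continuous arrays and 8.88, 8.63 and 8.53 on withdrawal arrays, so that the groups were clearly apart. The difference was 0.79 (SE 0.15). Without withdrawal replicate 1 neither Slc16a12 (0.69) nor Slc16a7 (0.77) was called, which left 3 of the probe sets called higher.

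Slc16a10 was nearly level. It is the carrier for aromatic amino acids, among them tyrosine, whose breakdown these mice cannot complete. Its signals were 8.75, 8.76 and 8.84 on continuous arrays and 8.88, 8.94 and 8.67 on withdrawal arrays. The groups overlapped, with a difference of 0.05 (SE 0.15, 95% interval -0.28 to 0.37). The sign turned after quantile normalization (-0.12) and without withdrawal replicate 2 (-0.01).

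**Figure D2:**
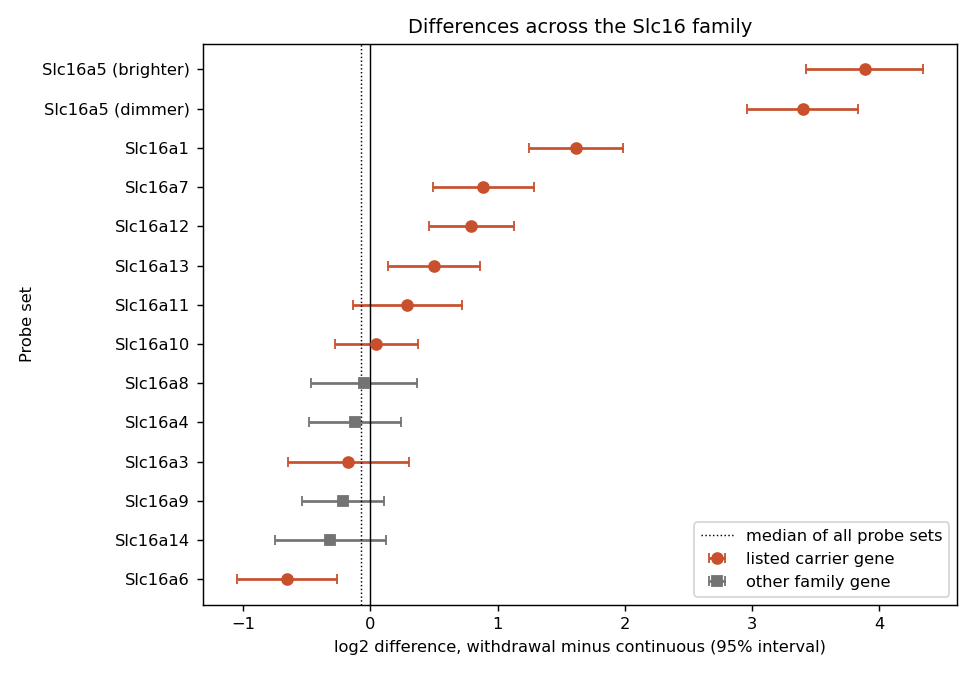
Log2 difference between withdrawal and continuous NTBC with its 95% interval for the 10 Slc16 probe sets (orange) and for 4 other family genes (grey), with the median of all probe sets as a dotted line. Slc16a5 and Slc16a1 stand farthest to the right, from 1.61 to 3.88, while the 4 other family genes lie between -0.32 and -0.05.

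Of the 5 family genes outside the set, 4 had a probe set of their own, and limma called 0 of them in either direction (0 also at an unadjusted p under 0.05). Slc16a9, a carrier linked to carnitine and urate, had a difference of -0.22 (SE 0.14, adjusted p = 0.405) on its brighter probe set and 0.003 on the dimmer one. Slc16a14, an orphan carrier, had -0.32 (SE 0.20, adjusted p = 0.368). Slc16a4, another orphan, had -0.12 (SE 0.16, adjusted p = 0.701). Slc16a8, the lactate carrier of the retinal pigment epithelium, had -0.05 (SE 0.19, adjusted p = 0.897), and its sign turned with quantile normalization (0.02), with median centring (0.05) and without continuous replicate 2 (0.07) or withdrawal replicate 2 (0.09). Signals of Slc16a4 and Slc16a14 (4.13 to 5.01) were close to the lower quartiles of the arrays (4.03 to 4.26).

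Transcripts of the proteins that escort these carriers were tested in the same fit, on a list drawn up with earlier results of these data known, as were the lists that follow. Of 6 measured partners and other monocarboxylate carriers, 3 rose and 0 fell, with a median difference of 0.48 against -0.08 for all probe sets. Bsg, basigin, which escorts Slc16a1 and Slc16a3, rose from 10.45, 10.16 and 10.47 to 11.01, 10.98 and 10.96 (difference 0.62, SE 0.15, adjusted p = 0.0266). Nptn, neuroplastin, a basigin relative, rose by 0.73 (SE 0.14, adjusted p = 0.00838). Mpc1, a subunit of the mitochondrial pyruvate carrier, rose by 0.70 (SE 0.15, adjusted p = 0.0159) on its brighter probe set and read 0.08 (adjusted p = 0.765) on the dimmer one.

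Emb, embigin, the preferred escort of Slc16a7, had a difference of -0.47 (SE 0.27, adjusted p = 0.324) on its brighter probe set. Continuous signals there were 6.03, 7.05 and 6.53 and withdrawal signals 5.87, 5.81 and 6.51. Its dimmer probe set read -0.22 (adjusted p = 0.398). The sodium-coupled carriers Slc5a8 (0.34) and Slc5a12 (-0.19) did not pass. Bsg no longer passed when continuous replicate 2 (adjusted p = 0.0862) or any 1 withdrawal array was left out (0.123, 0.0917 and 0.0620 for replicates 1, 2 and 3). Leaving out continuous replicate 2 (0.0586) or withdrawal replicates 1 (0.0676) or 2 (0.0739) did the same to Mpc1, as withdrawal replicate 1 (0.0573) did to Nptn. The count was 0 without withdrawal replicate 1 and 1 without continuous replicate 2 or withdrawal replicate 2.

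Enzymes that make and use lactate and pyruvate went both ways. Of 18 measured, 5 rose and 4 fell, with a median difference of 0.20. Pkm, the pyruvate kinase of most tissues other than liver, rose from 7.41, 6.95 and 7.22 to 8.77, 8.61 and 8.38 (1.39, SE 0.17, adjusted p = 8.53e-04). Pklr, the liver form, fell by 1.40 (SE 0.17, adjusted p = 8.44e-04). Pdhx, which holds the pyruvate dehydrogenase complex together, rose by 1.06 (SE 0.14, adjusted p = 0.00131). Pdk4, a kinase that inhibits that complex, rose by 2.76 (SE 0.42, adjusted p = 0.00260), with 9.72, 8.58 and 7.75 on the withdrawal arrays. The related Pdk1 fell by 1.06 (adjusted p = 0.00342) on its brighter probe set and read -0.58 (adjusted p = 0.0732) on the dimmer one. Pck1, an enzyme of glucose synthesis from lactate and pyruvate, fell by 2.07 (adjusted p = 0.00553). Pcx, pyruvate carboxylase, did not pass (0.22, adjusted p = 0.428). Pdp1, a phosphatase that activates pyruvate dehydrogenase (0.74, adjusted p = 0.0287), and Pdhb, one of its subunits (0.59, adjusted p = 0.0325), also rose, and Ldhd, the D-lactate dehydrogenase, fell (-0.66, adjusted p = 0.0241). The lactate dehydrogenases Ldha (-0.37, adjusted p = 0.155) and Ldhb (0.32, adjusted p = 0.238) did not pass. The rise count was 3 without continuous replicate 2 or 3 or any 1 withdrawal array.

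Of 5 measured ketone body enzymes 1 passed. Bdh2, annotated as a hydroxybutyrate dehydrogenase, fell by 0.69 (SE 0.16, adjusted p = 0.0268). Its call was lost with median centring (adjusted p = 0.0937), without continuous replicate 1 or 3, and without any 1 withdrawal array (highest adjusted p = 0.110). Aacs, which activates acetoacetate for lipid synthesis, had -0.33 (adjusted p = 0.251), and Bdh1, the mitochondrial hydroxybutyrate dehydrogenase, had 0.17 (adjusted p = 0.546) and -0.01 after quantile normalization. Acat1 (-0.05) and Oxct1 (-0.04), also on this list, were near 0.

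Beside Slc16a10, other carriers of aromatic and large neutral amino acids were examined. Of 10 measured, 1 rose and 1 fell, with a median difference of 0.14. Slc3a2, the heavy chain that pairs with several such carriers, rose by 1.31 (SE 0.16, adjusted p = 8.62e-04). Slc43a1, a facilitated carrier of large neutral amino acids, fell by 0.60 (SE 0.14, adjusted p = 0.0225). This call was lost with median centring (adjusted p = 0.0707) and without any 1 array other than continuous replicate 1 (highest adjusted p = 0.124). Slc7a5, a light chain partner of Slc3a2, had 0.58 (SE 0.21, adjusted p = 0.122), and 0.79 (adjusted p = 0.0407) without continuous replicate 2. Slc36a4, a carrier of tryptophan and proline, had 0.10 (adjusted p = 0.799) on its brighter probe set and 0.86 (adjusted p = 0.0132) on its dimmer one. The rise count was 2 with array weights and without continuous replicate 2 or withdrawal replicate 3.

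Slc16a10 also carries thyroid hormones, and genes that handle or answer to these hormones included large differences. Of 11 measured, 3 fell and 1 rose, with a median difference of -0.32. Thrsp, a lipogenic regulator named for its thyroid response, fell by 3.38 (SE 0.26, adjusted p = 4.7e-05). Dio1, the liver deiodinase that activates and clears thyroid hormone, fell from 10.10, 10.47 and 9.36 to 7.29, 7.59 and 6.75 (difference -2.77, SE 0.29, adjusted p = 2.98e-04). Serpina7, thyroxine-binding globulin of plasma, rose by 2.90 (SE 0.22, adjusted p = 4.56e-05). Klf9 also fell (-1.01, adjusted p = 0.00643). The receptors Thra (-0.51, adjusted p = 0.134) and Thrb (-0.19, adjusted p = 0.486) and the plasma carrier Ttr (0.10, adjusted p = 0.714) did not pass. Dio2, another deiodinase, read -0.07 (adjusted p = 0.878) on its brighter and -0.63 (adjusted p = 0.0218) on its dimmer probe set.

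Around Slc16a12, 7 creatine genes were measured, of which 1 rose and 1 fell (median difference -0.21). Gamt, which makes creatine in its final methylation step, fell by 1.14 (SE 0.19, adjusted p = 0.00427). Slc6a8, the sodium-coupled creatine importer, rose from 5.99, 6.21 and 6.52 to 7.23, 7.13 and 7.03 (0.89, SE 0.17, adjusted p = 0.00882), with an adjusted p of 0.0541 once withdrawal replicate 1 was left out. Ckb, a creatine kinase, had 0.31 (SE 0.14, adjusted p = 0.219), and Gatm, the enzyme of the first step, had 0.29 (adjusted p = 0.297).

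Hypoxia-linked and glycolytic genes, a class to which Slc16a3 belongs in many cells, were measured for 12 of 15 listed. Of these 3 rose and 0 fell, with a median difference of 0.18. At an unadjusted p under 0.05 limma gave 5 higher and 2 lower. Slc2a1, the widespread glucose importer, rose by 1.39 (SE 0.18, adjusted p = 0.00106) on its brighter probe set and read 0.16 (adjusted p = 0.650) on its dimmer one. Egln3, an oxygen-sensing hydroxylase, rose by 1.53 (SE 0.24, adjusted p = 0.00303), and Tpi1, a glycolytic enzyme, by 0.95 (SE 0.14, adjusted p = 0.00220). Pgk1 (0.38, adjusted p = 0.142) and Gapdh (0.25, adjusted p = 0.327), also of glycolysis, did not pass. Neither did Pfkfb4 (0.58), Adm (0.12), Hk2 (0.07) and Bnip3 (0.06). Negative differences that did not pass were those of Pfkfb3 (-0.71, adjusted p = 0.178) and Vegfa (-0.41, adjusted p = 0.221). Car9 was also negative without passing, at -0.43 on its brighter and -0.33 on its dimmer probe set. Without continuous replicate 1 the fall count was 1.

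**Figure D3:**
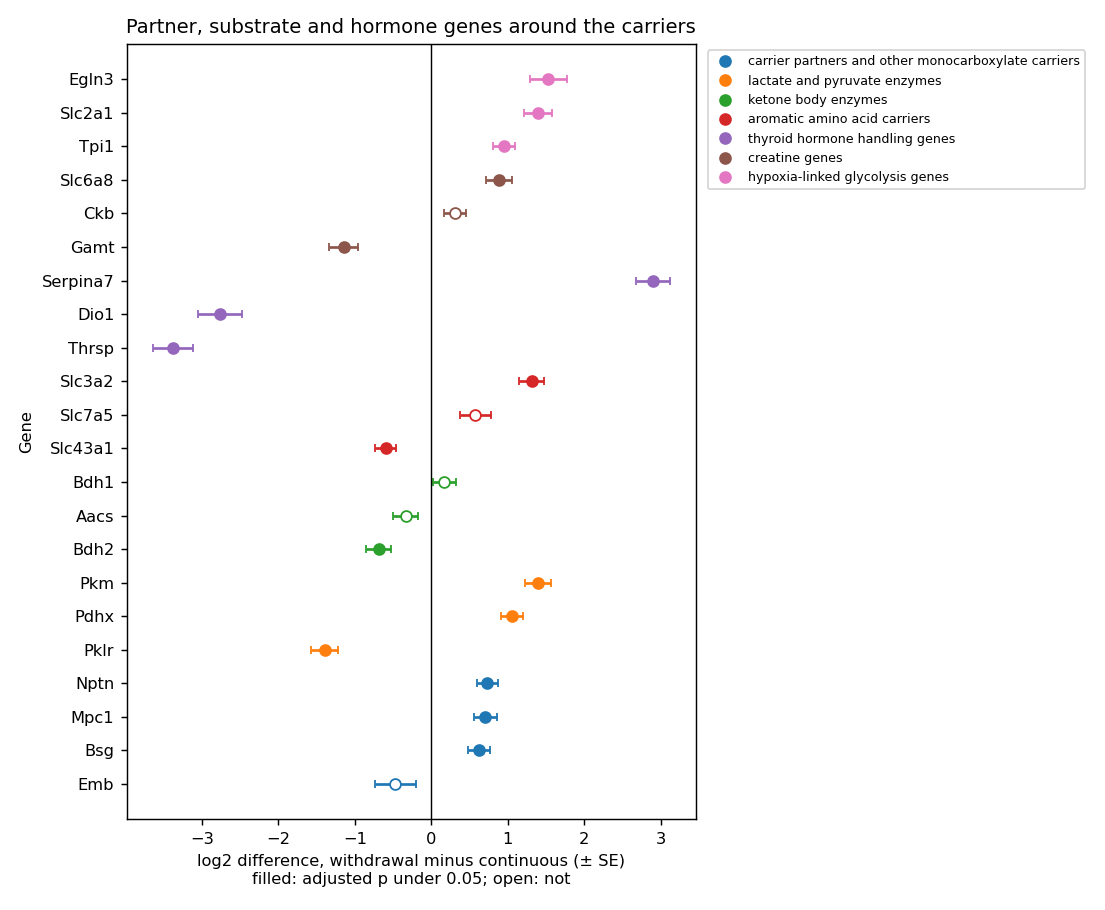
Log2 difference between withdrawal and continuous NTBC, with SE, for the genes of each companion list with the smallest p-values and for Bsg and Emb, coloured by list. Filled points passed limma's adjusted p of 0.05; they run from -3.38 for Thrsp to 2.90 for Serpina7, and Bsg, Mpc1 and Nptn lie between 0.62 and 0.73.

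Of 8 sinusoidal endothelial markers 2 rose, Clec4g (0.81, adjusted p = 0.00553) and Lyve1 (1.07, adjusted p = 0.0324), and the mean log2 signal of that list was 7.48 to 7.77 in the continuous and 8.06 to 8.09 in the withdrawal group. The part of this shift, and of the lower hepatocyte markers given above, in the Slc16 differences was not tested.

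Macrophages and neutrophils also carry Slc16a1 and Slc16a3. Limma called 0 of 9 macrophage markers (1 at an unadjusted p under 0.05), whose mean was 6.74 to 6.98 against 6.78 to 7.32. Of 9 neutrophil and monocyte markers 1 fell, Retnlg (-0.65, adjusted p = 0.0483), and the means of the list were 4.39 to 4.61 and 4.31 to 4.42. All Retnlg signals, from 3.15 to 4.22, lay below the lower quartile of their array. Lymphocyte (8), stellate (8) and bile duct (5) markers gave 0 calls, with 1, 3 and 1 at an unadjusted p under 0.05, and 1 of 3 erythroid markers fell, Klf1 (-0.63). Their part in the Slc16 differences was not tested either.

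The patterns closest to the Slc16 genes with the largest rise and fall were sought among probe sets of 1 symbol, by the root mean square difference of centred log2 signals over the 6 arrays. The closest to the brighter Slc16a5 probe set were Cdkn1a (0.087), the cell cycle inhibitor p21, Hmox1 (0.181), which degrades heme, and Slc1a1 (0.223), a glutamate and cysteine carrier. Cdkn1a read 6.32, 6.07 and 6.99 on continuous arrays and 10.57, 10.37 and 10.29 on withdrawal arrays. Within the continuous group all 3, like the brighter Slc16a5 probe set, were highest on replicate 3 and lowest on replicate 2, a likeness that the measure itself seeks. The dimmer Slc16a5 probe set was highest on replicate 1.

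For Slc16a6 the closest were Kbtbd13 (0.063), Sec31b (0.070) and Pou4f3 (0.082), with differences of -0.67, -0.62 and -0.54. Their signals ran from 4.29 to 5.98, against array medians between 5.21 and 5.44. With so many probe sets to choose from, close matches over 6 arrays arise readily, and no shared control is read from them.

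**Figure D4:**
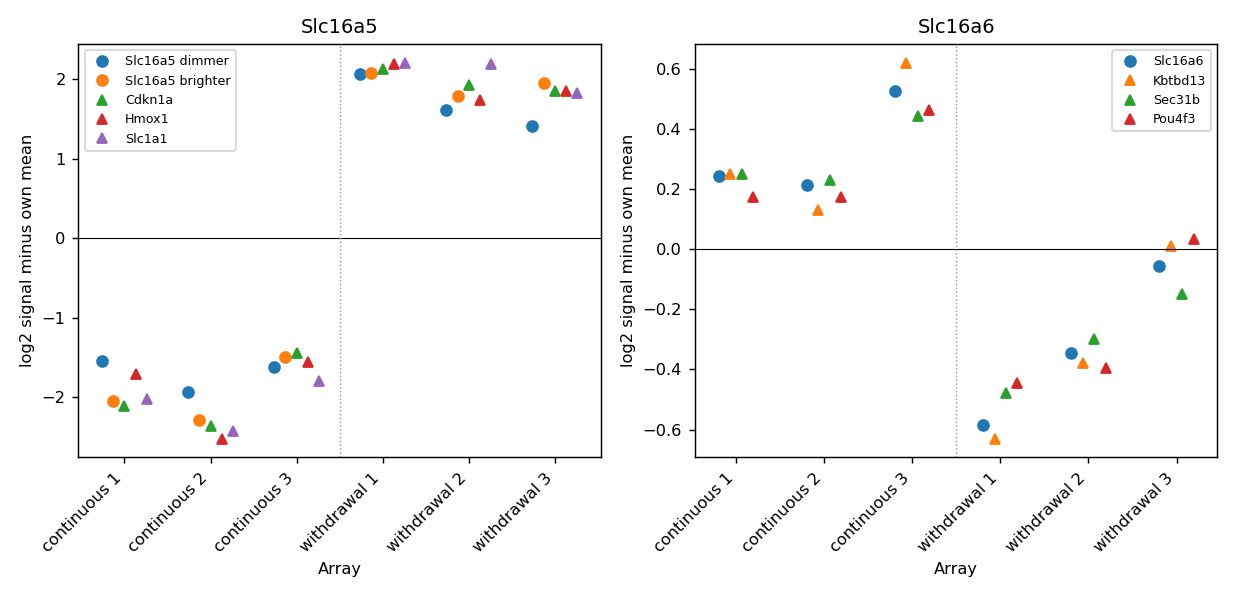
Log2 signal minus the probe set's own mean on each of the 6 arrays, for both Slc16a5 probe sets (left, circles) and Slc16a6 (right, circles) and the 3 closest other genes (triangles). Slc16a5 and its neighbours differ by 3.40 to 4.15 between the groups, and Slc16a6 and its neighbours differ by 0.54 to 0.67.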

How the data were processed

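Liver RNA of 6 samples was measured on Affymetrix whole-transcript gene arrays, 3 on continuous NTBC and 3 after withdrawal. Per the submitters' processing notes, the values were made with Transcriptome Analysis Console. The normalization, the background correction and the software version are not given in the sources used here. The authors deposited a linear intensity for each of 34472 probe sets and array. All intensities (100%) lay within 0.006 of a power of 2 with a 2-decimal exponent. Values were turned to log2 and not normalized again.

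Probe sets were named from the platform annotation (23521 with 1 symbol, 1814 with several, 9137 with none). None with several symbols was used, which left out 1 that lists Slc16a3 beside Csnk1d. By identifier, 23328 symbols were found in RefSeq's genes of GRCm38.p6, and 0 needed an update. For a companion or marker gene with several probe sets, the one with the highest mean was used.

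All probe sets were fitted together with limma 3.58.1 in R 4.3.3 (lmFit, eBayes, 4 residual and 10.2 total degrees of freedom), two-sided, with Benjamini-Hochberg adjustment and a threshold of 0.05. The fit was tested on simulated data. The Slc16 genes and the gene lists were chosen with earlier results of these data known. Named were every measured Slc16 gene, Bsg and Emb, the 3 smallest p-values of each companion list, and the 3 probe sets closest in pattern to Slc16a5 and to Slc16a6. Other genes named (Slc5a8, Slc5a12, Pdk4, Pck1, Pcx, Pdk1, Pdp1, Pdhb, Ldhd, Ldha, Ldhb, Acat1, Oxct1, Slc36a4, Klf9, Thra, Thrb, Ttr, Dio2, Gatm, Pgk1, Gapdh, Pfkfb4, Adm, Hk2, Bnip3, Pfkfb3, Vegfa, Car9 and the marker genes) were chosen after their values were seen. Alternatives were quantile normalization, median centring, the replicate block, dropping dim probe sets, array weights, trend and robust options, 1-symbol probe sets, averaging over a gene's probe sets, a 2-fold threshold, signals raised to the lower quartile of their array, and each array left out.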

Additional observations from a re-analysis of the deposited data

How the results depend on the processing

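The Slc16 genes were chosen on this comparison, so their counts across settings are a description and show no stability. The count of Slc16 probe sets called lower was 0 after median centring, and a 2-fold threshold gave 3 higher and 0 lower. Leaving out each array in turn gave 3 to 5 higher and 0 to 1 lower. For companion lists it gave 0 to 3 carrier partners higher, 3 to 5 lactate and pyruvate enzymes higher, 0 to 1 ketone body enzymes lower, 1 to 2 aromatic amino acid carriers higher and 0 to 1 lower, 0 to 1 creatine genes higher and 0 to 1 hypoxia-linked genes lower. Median centring gave 0 ketone body enzymes and 0 aromatic amino acid carriers lower, and array weights 2 aromatic amino acid carriers higher. The cause of these shifts was not tested. Raising signals to the lower quartile of their array could change no Slc16 difference, since all 60 values lay above it. With the replicate block 5 Slc16 probe sets were higher and 1 lower, and 3298 of all probe sets were called. Same-numbered arrays had deviations that correlated at 0.16, -0.125 and 0.217, so the numbers were not taken as pairs. Signals near the lower quartile limit what small differences can show.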

Other observations

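Withdrawal replicate 1 lay farthest from the continuous group, in the direction of the difference, on 7 of the 10 Slc16 probe sets, with withdrawal replicate 2 farthest on 2 and withdrawal replicate 3 on 1. Among all 3241 called probe sets the same array was farthest for 44.2%, against 34.9% for withdrawal replicate 2 and 20.9% for withdrawal replicate 3.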
